A study of Mus musculus with 8 samples.

Results

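The RNAs of 10 genes for histone-modifying enzymes with very long coding sequences were examined for binding of MBD5 and MBD6 in mouse embryonic stem (mES) cells. The genes were Kmt2a, Kmt2b, Kmt2c, Kmt2d, Setd1a, Setd1b, Setd2, Nsd1, Ash1l and Kdm6a, taken from 21951 annotated protein-coding genes. A peak was assigned to a gene when its midpoint lay in the gene body on the same strand, and 144 of all 29555 peaks were so assigned. MBD5 and MBD6 are methyl-CpG-binding domain proteins that associate with the histone H2A deubiquitylase complex PR-DUB, and the study asked which RNAs they bind. Binding was measured by crosslinking, immunoprecipitation and sequencing of the bound RNA (CLIP-seq).

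The series held 8 samples in 4 groups of 2, namely CLIP and digested input from cells with Flag-MBD5 and the same from cells with Flag-MBD6. Both lines were wild-type mES cells that carried a stable, hygromycin-selected transgene for human MBD5 or MBD6 with a Flag tag, so the tagged proteins were overexpressed and the mouse genes were left in place. All cells grew in serum with LIF, CHIR99021 and PD0325901 and were passaged on gelatin to remove feeder cells. The characteristics of the CLIP samples and the methods name a Flag antibody, whereas the extraction protocol in the labels names one against MBD6. RNase T1, which cleaves RNA after G, trimmed the bound RNA in every sample. Peak lists of the 4 CLIP libraries were used, and the inputs were not analysed here as samples of their own.

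In mammals KMT2A, KMT2B, KMT2C, KMT2D, SETD1A and SETD1B are the catalytic subunits of the COMPASS family, the relatives of Drosophila Trithorax that methylate lysine 4 of histone H3 through a SET domain. KMT2A and KMT2B are recruited with menin to promoters, KMT2C and KMT2D act mainly at enhancers, and SETD1A and SETD1B place most of the promoter trimethylation. SETD2, NSD1 and ASH1L methylate lysine 36 of H3 instead. KDM6A, also called UTX, has no SET domain: it is a demethylase of lysine 27 of H3 that sits in the KMT2C and KMT2D complexes.

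The peaks of the 10 genes fell into 59 distinct sites when overlapping peaks of the libraries were joined. At least 1 site was held by 9 of the 10 genes, while 4268 of all 21951 protein-coding genes held a peak. Sites were numbered within each gene from its 5′ end. The sequences below open the strongest site of each gene, and they are shown because A- and G-rich stretches marked most of them. The strongest site was the one with the highest mean number of reads at the summit, with sites found in all 4 libraries taken first. Each line gives the base before the 5′ end of the peak with the most reads and the first 29 nt of that peak, read 5′ to 3′ from the GENCODE M21 transcripts (mm10), and capitals mark runs of at least 6 A or G. The lines for Kmt2d and Ash1l, which had no site in all 4 libraries, were chosen after their values were seen.
Kmt2a, site 3, exon 7 of 36, chr9:44842495-44842899, minus strand: GAAAAAGtctaagaccactGAAAAGAAAGA
Kmt2b, site 1, exon 3 of 37, chr7:30585998-30586400, minus strand: ggagcagaaactGGAGGAGGAGGAGGAGGA
Kmt2c, site 2, exon 2 of 59, chr5:25443716-25443902, minus strand: gaagtAGAGGAAAAtctacagtGGAAGAtg
Kmt2d, site 2, exon 23 of 55, chr15:98855661-98855847, minus strand: GAGGGGGAcGAGAAGAAGAAGcaacagcga
Setd1a, site 3, exon 11 of 19, chr7:127788205-127788409, plus strand: gcGAGAGAAGGAAGctGGAGAAccaggacg
Setd1b, site 2, exon 17 of 17, chr5:123165854-123166087, plus strand: gatcacggtggagtcccAGAAGAAGAtcgt
Setd2, site 4, exon 3 of 21, chr9:110551009-110551538, plus strand: caagtaccagattctctaacagacgatcgt
Nsd1, site 1, exon 2 of 23, chr13:55213924-55214148, plus strand: GAAAAAcAGAAAAAtaaacAAAGAAGtgaa
Ash1l, site 3, exon 5 of 28, chr3:89007810-89007997, plus strand: gttAGAAGAAcagactAGGAAAAAGcagaa
Of the 9 stretches only that of Setd2 held no run of at least 6 purines. The Kmt2b line ended in 18 purines in a row, the longest run shown, and 21 of the 30 bases of the Nsd1 line were A.

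The Flag-MBD6 libraries were deeper than the Flag-MBD5 libraries, and the replicates of each protein were closer than Poisson sampling would give. The reads behind the peak lists were estimated at 478790 and 500143 for Flag-MBD5, and at 983918 and 1111742 for Flag-MBD6, a ratio of 2.14, from the lowest background rate of each list. Between replicates, the chi-square per degree of freedom of the summit reads was 0.496 at 685 sites for Flag-MBD5 and 0.414 at 277 sites for Flag-MBD6, where independent Poisson sampling gives 1. A library of one protein against a library of the other gave 3.74 to 4.39. The replicates therefore differed by less than Poisson noise. Identical reads had been collapsed, which can lower this value in separate libraries too, so it does not settle whether the replicates were independent. Each protein was counted as 1 sample, and both library values are given without an SD and without a test between the proteins. Of 12 genes that mark embryonic stem cells 10 held a peak, against 4268 of all 21951 protein-coding genes. Peaks of these markers summed to 5 and 8 for Flag-MBD5 beside 12 and 15 for Flag-MBD6. Of 10 feeder fibroblast markers only Fn1 and Vim held a peak, and Col1a1, Col1a2, Col3a1 and Postn were among the 8 without. Fn1, the gene for fibronectin, alone held 17 and 19 peaks for Flag-MBD5 beside 13 and 13 for Flag-MBD6, more than any stem cell marker, and the part of feeder RNA in the peaks was not tested. Because the peak lists hold no RNA abundance, more binding and more transcript of a gene cannot be told apart in any count that follows.

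In the 10 genes Flag-MBD6 had 48 and 50 peaks and Flag-MBD5 had 25 and 21 in its libraries. Their share of all peaks was 0.466% (95% Wilson interval 0.316% to 0.687%) and 0.390% (0.255% to 0.595%) for Flag-MBD5. It was 0.521% (0.393% to 0.690%) and 0.522% (0.396% to 0.687%) for Flag-MBD6. The mean number of peaks was 2.13 times as high for Flag-MBD6, against 1.75 times over all peaks and 2.14 times for the reads. Depth and protein cannot be told apart in these counts, since both Flag-MBD6 libraries were deeper, and with the same number of peaks taken from each library the Flag-MBD6 mean was 28 instead of 49. No peak lay on the opposite strand of any of the 10 gene bodies.

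**Figure D1:**
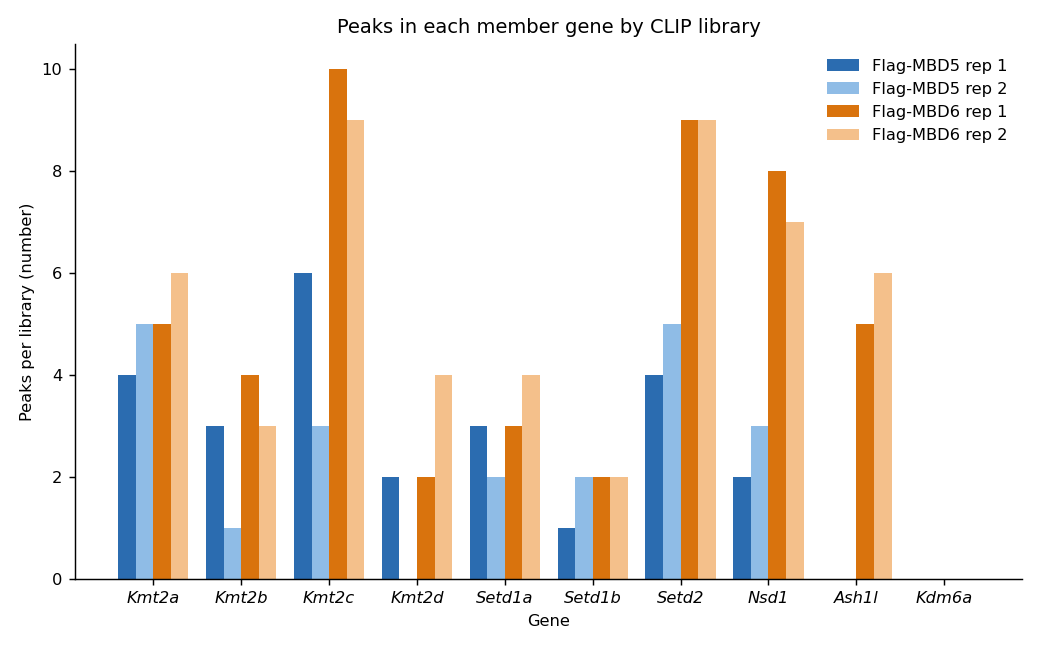
Number of peaks in each of the 10 genes (vertical axis) in each CLIP library (bars, one colour per library). Kmt2c and Setd2 reached 10 and 9 peaks in a Flag-MBD6 library, Ash1l had peaks in the Flag-MBD6 libraries only, and Kdm6a had none.

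A reproducible region, in which peaks of both replicates were merged, was present in 9 of the 10 genes for Flag-MBD6, against 13.8% of all protein-coding genes and 40.0% of the 1061 whose coding sequence was at least as long as that of Kdm6a, the shortest of the set at 4272 nt. For Flag-MBD5, 7 of the 10 genes had one, against 7.80% of all protein-coding genes and 26.5% of the long ones. The regions numbered 42 for Flag-MBD6 and 14 for Flag-MBD5. The genes without a Flag-MBD5 region were Kmt2d, Ash1l and Kdm6a.

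Among the promoter-bound pair, Kmt2a (chr9:44803355-44881296, minus strand) held 4 and 5 peaks in its Flag-MBD5 libraries beside 5 and 6 for Flag-MBD6, so the second Flag-MBD5 library was level with the first Flag-MBD6 library. Its 8 sites ran from 8.33% to 81.0% of the coding sequence, and 2 of them were found in all 4 libraries. Kmt2b (chr7:30568858-30588726, minus strand) held 3 and 1 peaks for Flag-MBD5 beside 4 and 3 for Flag-MBD6. All 4 sites of Kmt2b lay in the first 37.2% of its coding sequence, and 3 of them in exon 3, which carries 24.9% of the coding length. At its site 1 the summit reads were 27 and 34 for Flag-MBD5 beside 50 and 60 for Flag-MBD6, the highest values of Kmt2b in each library. The repeated GGA triplets printed above lie at the start of this site.

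The enhancer-bound pair differed from each other. Kmt2c (chr5:25271798-25498783, minus strand) held 6 and 3 peaks for Flag-MBD5 beside 10 and 9 for Flag-MBD6, the highest total of the set at 28, and 107 of the 21951 genes, Kmt2c included, had at least as many. Kmt2d (chr15:98831669-98871204, minus strand), with the longest coding sequence of the set at 16764 nt, held 2 and 0 peaks for Flag-MBD5 beside 2 and 4 for Flag-MBD6. Its Flag-MBD6 count per kb of coding sequence was 0.179, the lowest of the 9 genes with a peak, beside 0.646 for Kmt2c.

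The coding sites of Kmt2c fell into an early and a late group with 1 site between them. Of its 12 sites, 5 lay in coding exons within the first 13.1% of the coding sequence, 1 lay at 33.6% and 5 lay between 65.1% and 78.4%. The remaining site, chr5:25498173-25498322, was in intron 1 and had 13 summit reads in the first Flag-MBD5 library only. It was the only site of the set outside coding sequence. Site 2 of Kmt2c, at 1.24% of the coding sequence, had 24 and 20 summit reads for Flag-MBD5 beside 57 and 46 for Flag-MBD6, more than any other Kmt2c site in any library.

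Setd1a (chr7:127776670-127800122, plus strand) held 3 and 2 peaks for Flag-MBD5 beside 3 and 4 for Flag-MBD6. Its site 3 had 27 and 37 summit reads for Flag-MBD5 beside 63 and 69 for Flag-MBD6, the highest of all 59 sites in both Flag-MBD6 libraries and in the second Flag-MBD5 library. Site 2 had 34 and 29 beside 50 and 51. Both sites lay near the middle of the coding sequence, at 50.1% and 55.1% of it. Of the 4 Setd1a sites, 3 also lay in Gm49388, an annotated gene on the same strand that overlaps Setd1a, and their reads cannot be assigned to one of the genes.

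Setd1b (chr5:123142193-123168629, plus strand) held 1 and 2 peaks for Flag-MBD5 and 2 in each Flag-MBD6 library. Both of its sites lay in the last part of the coding sequence. Site 2, at 97.7% of it and in the last exon, had 30 and 24 summit reads for Flag-MBD5 beside 45 and 60 for Flag-MBD6. The coding sequence of Setd1b had the highest GC content of the set at 61.8%, and its sites averaged 26.7% adenine, the lowest of the 9 genes.

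Setd2 and Nsd1 had the most Flag-MBD6 peaks per kb. Their products methylate lysine 36, as does that of Ash1l, which had 0.620 per kb, below Setd1a at 0.680 and Kmt2c at 0.646. Setd2 (chr9:110532597-110618633, plus strand), whose product follows elongating RNA polymerase II, held 4 and 5 peaks for Flag-MBD5 and 9 in each Flag-MBD6 library. This gave 1.18 Flag-MBD6 peaks per kb of coding sequence, the highest of the set. Its site 4 had 19 and 21 summit reads for Flag-MBD5 beside 44 and 53 for Flag-MBD6, and 3 of its 10 sites were found in all 4 libraries, more than in any other gene of the set. Nsd1 (chr13:55209782-55318325, plus strand) followed at 0.929 per kb, with 2 and 3 peaks for Flag-MBD5 beside 8 and 7 for Flag-MBD6. All 8 Nsd1 sites held a run of at least 6 purines in their first 30 nt.

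Ash1l (chr3:88950622-89079375, plus strand) held 5 and 6 peaks in the Flag-MBD6 libraries and none in either Flag-MBD5 library. The summit reads of its 5 sites found in both Flag-MBD6 libraries were 12 and 17 at site 1, 21 and 20 at site 2, 28 and 33 at site 3, 15 and 23 at site 4, and 10 and 11 at site 5. Scaled to the depth of Flag-MBD5, these sites would hold 4.90 to 14.2 reads. Kdm6a (chrX:18162575-18279936, plus strand), the demethylase gene, held no peak in any library.

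**Figure D2:**
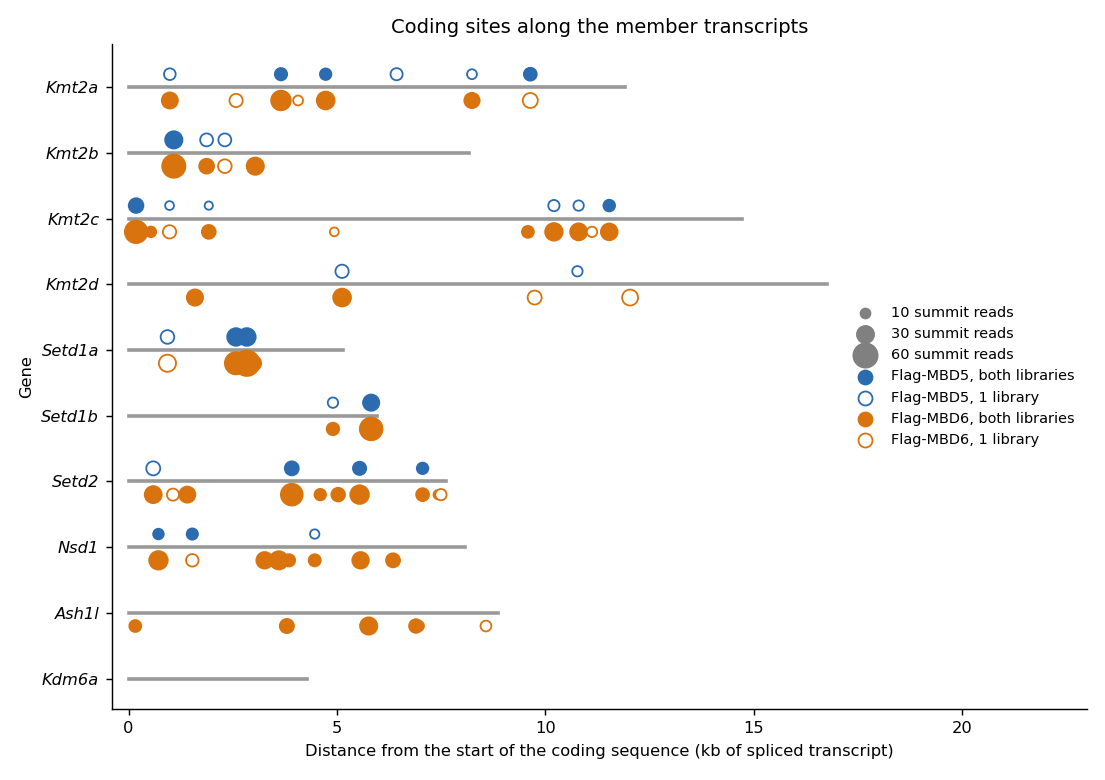
Coding sites of the 10 genes along the spliced coding sequence (grey lines, horizontal axis in kb from its start), with Flag-MBD5 above and Flag-MBD6 below each line. The area of a circle grows with the mean summit reads and a filled circle marks a site found in both libraries of the protein. The Kmt2b sites sit in the first part of the line, and Ash1l has circles below the line only.

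Sites without a Flag-MBD5 peak were read against what depth gave over all sites. Of the 59 sites, 12 were found in all 4 libraries, 29 in Flag-MBD6 only (20 of them in both of its libraries) and 3 in Flag-MBD5 only. Over the whole series, sites found in both Flag-MBD6 libraries with 5 to 10 reads after scaling to the Flag-MBD5 depth had a Flag-MBD5 peak in 42.7% of cases (41.0% to 44.5%, n = 3020), and those with 10 to 15 reads in 73.1% (71.1% to 75.0%, n = 1937). In the 10 genes the counts were 4 of 14 and 7 of 14. Under 5 scaled reads the share was 21.8% of all 147 sites and 0 of 2 in the set. Between 15 and 20 scaled reads the share was 89.0% of all 853 sites and 5 of 6 in the set. At 20 or more scaled reads the share was 97.9% over all 1520 sites and 6 of 6 in the set.

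For Ash1l, 4 of the 5 sites lay under 10 scaled reads, where most sites of the series had no Flag-MBD5 peak. Their lack of one therefore does not show a difference between the proteins, which was not tested. Site 3 lay at 14.2, in the range where 73.1% of all sites had a Flag-MBD5 peak. The site of the set with the most scaled reads and no Flag-MBD5 peak was site 4 of Nsd1 (chr13:55247870-55248089, plus strand), with 33 and 35 reads for Flag-MBD6 and 15.9 after scaling. Of the 26 sites of the set with at least 10 scaled reads, 8 had no Flag-MBD5 peak, which is 30.8% (16.5% to 50.0%), against 15.0% of all 4310 such sites. Of these 8, 3 lie in Nsd1 and are not independent of each other, and the difference from all sites was not tested.

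Region by region, 12 of the 14 Flag-MBD5 regions in the set were overlapped by a Flag-MBD6 region, which is 85.7% (60.1% to 96.0%), against 90.0% of all Flag-MBD5 regions. In the other direction 12 of 42 Flag-MBD6 regions were overlapped by a Flag-MBD5 region, which is 28.6% (17.2% to 43.6%), against 47.7% of all Flag-MBD6 regions. With equal numbers of peaks per library this share of the set was 45.8%. The share over all Flag-MBD6 regions was not computed with equal numbers, so 45.8% cannot be set against 47.7%. All 14 Flag-MBD5 regions met a peak of at least 1 Flag-MBD6 library. When a peak of either Flag-MBD5 library was enough, the share of Flag-MBD6 regions was 52.4% (37.7% to 66.6%), against 66.7% of all. Sites of 1 gene share a transcript and are not independent, so the intervals are too narrow for a statement about the genes.

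Where both proteins had a site, no single site departed from equal depth-scaled reads beyond counting error. Only sites with a peak in both Flag-MBD5 libraries were compared. The 20 sites found in both Flag-MBD6 libraries without a Flag-MBD5 peak are left out, and how far this lowered the ratio was not tested. Over the 12 sites with a peak in every library the log2 ratio of Flag-MBD6 over Flag-MBD5 summit reads, each divided by the depth, had a median of -0.06, beside -0.34 over all 3566 such sites of the series. The 12 values ran from -0.77 at site 8 of Setd2 to 0.51 at site 1 of Nsd1, and the exact 95% counting interval of each held 0. Of these intervals, 11 also held the median over all shared sites. That of Nsd1 site 1, from -0.19 to 1.255, lay above it. The intervals were wide, for example -1.54 to 0.02 at site 8 of Setd2, so holding 0 does not show equal reads. Nsd1 site 1 had 10 and 13 summit reads for Flag-MBD5 beside 29 and 41 for Flag-MBD6. Setd2 site 8, which had 15 and 12 against 13 and 21, was the only one of the 12 where the unscaled reads of the proteins overlapped. Summed over the 12 sites the log2 ratio was -0.06 (-0.21 to 0.10). The sign of the median depended on the scaling: it was 0.27 relative to the median of all shared sites. From the fold enrichment over the local background it was 0.80. The fold was not divided by the depth and keeps part of the depth difference, so this value is not a like scaling.

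**Figure D3:**
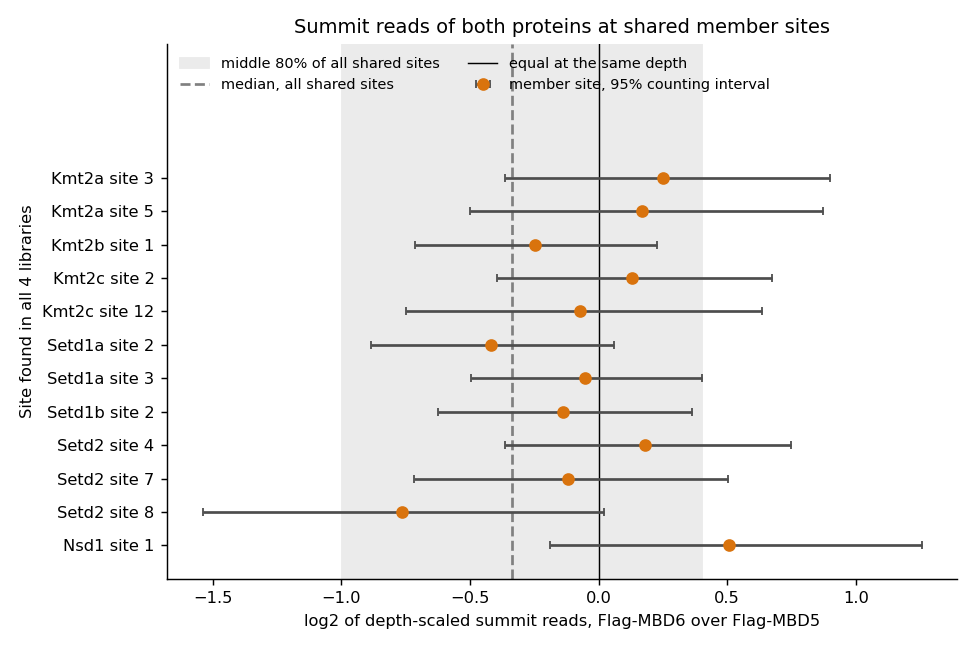
Log2 ratio of depth-scaled summit reads, Flag-MBD6 over Flag-MBD5 (horizontal axis), at the 12 sites of the set found in all 4 libraries, with exact 95% counting intervals. The grey band holds all of the 3566 shared sites but the lowest and highest 10%, the dashed line is their median, and every bar crosses the line at 0.

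The bound sites lay in coding exons. Taken 15 nt inside the 5′ end, 143 of the 144 peaks were in coding sequence, which is 99.3% (96.2% to 99.9%), against 79.0% of all peaks. All peaks include those outside protein-coding genes, whereas the peaks of the set were assigned to such genes, so the shares cover unlike sets. A site found in several libraries gave several of these peaks, so the interval is too narrow. By distinct site, 58 of 59 were coding. Coding sequence made up 80.4% of the length of the transcripts used and 10.7% of the gene bodies. The position matters: by the midpoint, which also assigned the peaks, 75.7% were coding and 31 peaks lay in introns. Reads were extended to 150 bp in the 3′ direction without regard to splicing, and how far this moved midpoints into introns was not tested. The 58 coding sites were spread over 46 of the 319 coding exons, with 20, 20 and 18 in the first, middle and last part when the coding sequence was cut into 3 equal parts.

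The longest exons held about their share of the peaks. The longest coding exon of each gene held 40 of 143 coding peaks, which is 28.0% (21.3% to 35.8%). These exons made up 32.1% of the coding length when each gene was weighted by its coding peaks. A site found in several libraries gave several of these peaks, so the interval is too narrow. The genes differed: exon 3 of Kmt2b held 9 of 11 peaks on 24.9% of the length, whereas exon 2 of Ash1l held 2 of 11 on 51.4% and exon 3 of Setd2 held 11 of 27 on 56.3%. In Kmt2c and Setd1a the longest exon held none of 27 and 12 peaks.

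Adenine was higher at the sites than in the coding sequence around them. In the first 30 nt of the 57 sites with a full window in the transcript used, counted from the 5′ end and without the base before it that the printed lines include, 39.2% of bases were A (37.0% to 41.6%), beside 28.0% over all coding windows of the same genes weighted by their sites. The interval counts 1710 bases as independent. Bases of 1 window and sites of 1 gene are not, so it is too narrow. Over all peaks of the series the share was 37.3% to 38.7%, so the sites of the set were like peaks elsewhere in this measure. Adenine was above the average of the gene's own coding sequence at 48 of the 57 sites, and single sites ranged from 13.3% to 70.0%. In bins of 10 nt it was 30.5% just before the 5′ end, 38.1% to 40.2% in the first 30 nt and 28.8% at 80 to 89 nt.

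The mean adenine content of the sites differed between the genes. It was 46.3% in Nsd1, 44.3% in Kmt2c, 42.9% in Kmt2a and 42.8% in Ash1l, and between 26.7% and 35.8% in Setd1b, Kmt2b, Kmt2d, Setd2 and Setd1a. Each of these averages was above that of the gene's own coding sequence, which ran from 21.4% to 32.9%. Setd2, with the most adenine in its coding sequence, came nearest to it, at 33.7% for the sites against 32.9%.

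**Figure D4:**
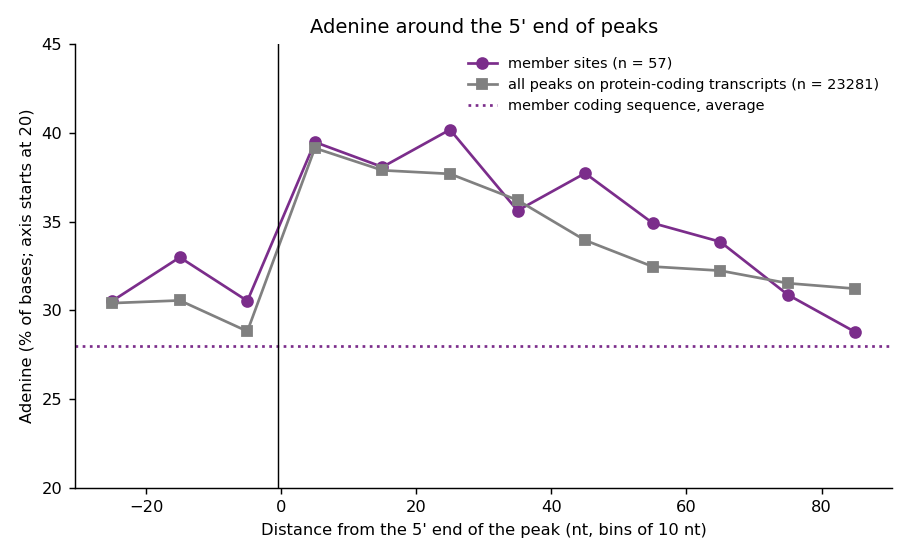
Adenine content (vertical axis, % of bases, starting at 20) in bins of 10 nt around the 5′ end of peaks (horizontal axis, nt of transcript), for the 57 sites of the set (circles) and 23281 peaks of the series on protein-coding transcripts (squares). Both lines step up at the 5′ end, the set from 30.5% to 39.5%, and return towards the coding average of the set (dotted line, 28.0%).

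Runs of at least 6 A or G occurred in these first 30 nt at 39 of 57 sites, which is 68.4%, beside 35.1% of all coding windows of the 10 genes and 65.5% to 71.2% of the peaks of the 4 libraries. By number of libraries, the run was present at 4 of 11 sites with a window found in 1 library, 17 of 22 found in 2, 9 of 12 in 3 and 9 of 12 in 4. The ratio of observed to expected CpG was 0.511 at the sites and 0.350 in the coding sequence weighted in the same way, against 0.593 to 0.632 over the peaks of the libraries. Cytosine made up 22.3% of the bases at the sites and 25.9% of that coding sequence.

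G stood just before the 5′ end at 38 of 57 sites, which is 66.7% (53.7% to 77.5%), and C at 13 sites. The share of G was 83.3% and 82.8% over all Flag-MBD5 peaks, 74.2% and 73.4% over all Flag-MBD6 peaks and 24.9% in the coding sequence of the set. RNase T1 leaves fragments that start after G. How far this cleavage shaped the adenine and purine content was not tested.

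Peaks per length followed adenine content loosely. Across the 10 genes, Kdm6a without a peak included, Spearman's rho between the adenine content of the coding sequence and Flag-MBD6 peaks per kb was 0.455. Across the 495 long genes with a Flag-MBD6 peak it was 0.405. Long genes without a peak were left out there, so the 2 values cover unlike sets and cannot be compared directly. These values describe genes within the same 2 libraries and carry no test. Kdm6a, with 30.1% adenine and no peak, stood apart from Setd2, Nsd1, Ash1l and Kmt2c, which had 29.3% to 32.9% adenine and 0.620 to 1.18 peaks per kb.

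Among the 1061 long genes, each gene counted with itself, 82 had at least as many Flag-MBD6 peaks per kb as Setd2, 116 as many as Nsd1, 175 as many as Setd1a and 188 as many as Kmt2c. Kmt2d was passed or equalled by 394. The median over the 495 long genes with a peak was 0.444 per kb and its upper decile began at 1.53, above every gene of the set.

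**Figure D5:**
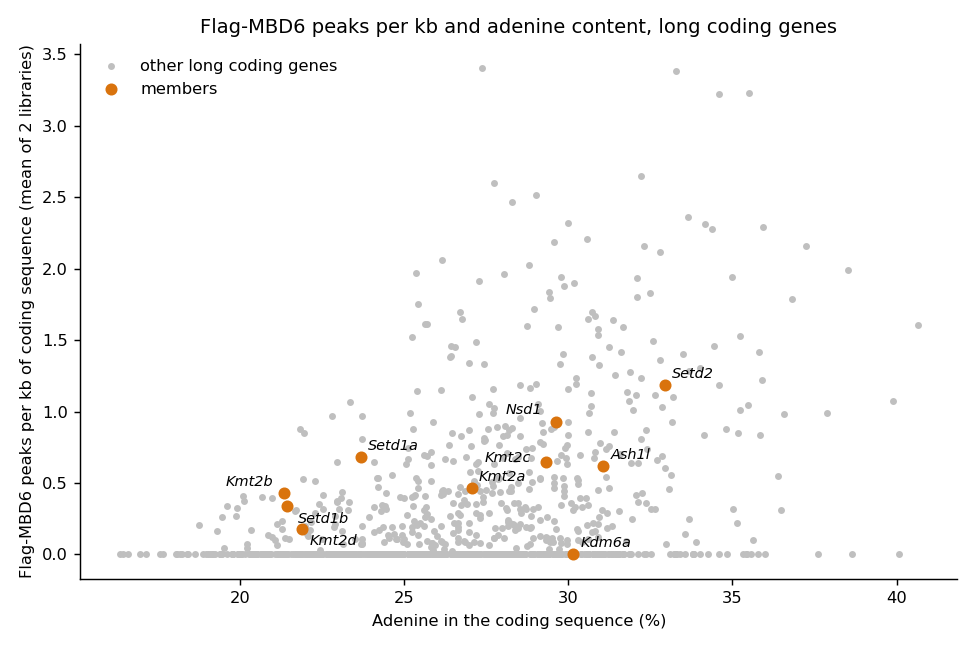
Flag-MBD6 peaks per kb of coding sequence (vertical axis, mean of both libraries) against the adenine content of the coding sequence (horizontal axis, %) for the 10 genes (orange) and the other long coding genes (grey). Setd2 lies highest of the set at 1.18 and Kdm6a lies at 0.

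Genes of related function were looked up in lists. Over all 21951 protein-coding genes, 13.8% had a Flag-MBD6 region, 7.80% had a Flag-MBD5 region and 4268 held a peak. Of 30 other SET-domain methyltransferase genes, 14 had a Flag-MBD6 region, 8 had a Flag-MBD5 region and 15 had no peak. The most peaks were in Setd5 (4 and 4 for Flag-MBD5, 8 and 6 for Flag-MBD6), in Ezh2, the lysine 27 methyltransferase of Polycomb complex PRC2 (4 and 4, 6 and 7), and in Ehmt1, which methylates lysine 9 of H3 (3 and 5, 4 and 5).

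Of 19 genes for partners of the KMT2 and SETD1 complexes, 11 had a Flag-MBD6 region, 6 had a Flag-MBD5 region and 4 had no peak. Taf1, a subunit of the general transcription factor TFIID, held 5 and 6 peaks for Flag-MBD5 beside 10 and 9 for Flag-MBD6. Bod1l, a SETD1A partner, held 6 and 7, and 8 and 8. Next came Ash2l, a core COMPASS subunit, with 3 and 2, and 4 and 4, and with the same total Psip1, which links menin to chromatin, with 2 and 2, and 4 and 5.

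Of 23 other histone demethylase genes, 13 had a Flag-MBD6 region, 8 had a Flag-MBD5 region and 8 had no peak. Jmjd1c led with 5 and 6 peaks for Flag-MBD5 beside 11 and 11 for Flag-MBD6, ahead of Kdm3a (6 and 4, 6 and 10) and Kdm5b, which demethylates lysine 4 of H3 (4 and 4, 4 and 3). The paralogues of Kdm6a held few or none: Kdm6b had 1 peak, in the second Flag-MBD6 library, and Uty had none.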

How the data were processed

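RNA bound by Flag-MBD5 and Flag-MBD6 was measured in 2 CLIP libraries each. Per the methods and labels, the authors collapsed identical reads, removed ribosomal RNA, aligned the rest to mm10 with Bowtie 1.0.0 without splicing, split strands with SAMtools 1.16.1 and called peaks per library with MACS2 (extension 150 bp, genome size 130000000 bp, up to 5 duplicates kept, q under 0.01). A read could match several places and was reported once, so reads of near-identical paralogues may be split. Of the deposited columns, the score is the −log10 q value times 10 without decimals. The fold enrichment deposited beside it is the ratio of summit signal to local background after the same constant was added to both. The deposited −log10 p and q values are those of MACS2, and another deposited column gives the summit position.

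Summit reads and background rates were solved from fold enrichment and −log10 p (tolerance 0.002, solved for 100% of peaks), and depths were estimated from the lowest rate on each strand. They are estimates, not sequenced totals. Overlap meant 1 bp or more on the same strand. Annotation and transcripts were GENCODE M21, 1 transcript per gene, and no genome or protein sequence was used here. Purine runs were at least 6 A or G on the transcript strand. Intervals are 95% Wilson intervals unless called exact and cover counting error only. The labels do not say that replicates were separate cultures. The 10 genes, the lists of related genes (other SET-domain methyltransferases, complex partners, histone demethylases, stem cell and feeder markers) and the rule for the described sites were chosen with earlier results of these data known. From each of the lists of methyltransferases, partners and demethylases, the 3 genes with the most peaks were named, with both genes where the last place was tied, while Kdm6b and Uty were named as paralogues of Kdm6a after their values were seen. The marker lists were only looked up for peaks. Python 3.11.15, numpy 2.4.6, pandas 2.3.3 and scipy 1.17.1 were used, and the steps were tested on simulated data. Alternatives covered q, fold, equal peak numbers, overlap, position, window, scaling and leaving out each library.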

Additional observations from a re-analysis of the deposited data

How the results depend on the processing

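Of 37 alternative values for 10 results, besides those leaving out a library, 29 stayed close to the values given and 8 moved. With 5362 peaks from each library, the Flag-MBD6 libraries had a mean of 28 peaks in the 10 genes instead of 49, and 45.8% of Flag-MBD6 regions were overlapped by a Flag-MBD5 region instead of 28.6%, since both rest on fewer Flag-MBD6 peaks. Counting a peak of either library of the other protein gave 100% of Flag-MBD5 regions and 52.4% of Flag-MBD6 regions. The coding share was 75.7% by midpoint and 82.6% by summit instead of 99.3%, beside 54.0% and 58.0% over all peaks by the same positions. Reads were extended in the 3′ direction without regard to splicing, and how far this lowered the shares was not tested. The log2 ratio at shared sites was 0.27 when scaled to the median of all shared sites, instead of -0.06, so its sign depends on the scaling. From the fold enrichment, which was not divided by the depth and keeps part of the depth difference, it was 0.80. Leaving out each library gave 21 to 25 Flag-MBD5 peaks and 48 to 50 Flag-MBD6 peaks, 7 to 8 genes with a Flag-MBD5 region and 9 with a Flag-MBD6 region, overlaps of 68.0% to 92.9% and 26.0% to 40.5%, coding shares of 98.9% to 100%, adenine of 38.6% to 39.5%, ratios of -0.08 to 0.05 and longest-exon shares of 26.9% to 29.5%. The single intron peak is in the first Flag-MBD5 library. No paired analysis was possible because the results come from no test. Peaks under 5 summit reads in Flag-MBD5 and 6 in Flag-MBD6 were not in the lists, which limits what can be said of weak sites.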
